A study of Mus musculus with 10 samples.

Results

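The *Gimap* genes encode the GTPases of immunity-associated proteins, and 8 of them, *Gimap1*, *Gimap3*, *Gimap4*, *Gimap5*, *Gimap6*, *Gimap7*, *Gimap8* and *Gimap9*, were followed here through early T cell development in culture. They were taken by name from the gene rows of the count tables, 8 of 24062 genes, and no other row carries a *Gimap* symbol. RNA-seq had been run on 10 libraries, all grown from LSK cells (Lin-SCA1+KIT+ progenitors) sorted from C57BL/6J mouse marrow and cultured with the growth factors SCF, FLT-3 ligand, IL-6 and IL-11. The no Notch control (n = 4) grew on immobilized human IgG at 5 µg/mL and carries the label of day 14, with libraries named D1, D2, R1 and R2. DN1 (KIT++CD44+CD25-, n = 2), DN2a (KIT++CD44+CD25+, n = 2) and DN2b (KIT+CD44loCD25+, n = 2) were flow sorted from cultures on the Notch ligand Delta1ext-IgG at 5 µg/mL. IL-7 was given to the cultures behind DN2a and DN2b but not to those behind DN1, so stage and IL-7 cannot be told apart between DN1 and DN2. In each DN stage replicate 1 is the library with the earlier date in its label and replicate 2 the later, and replicates of the same number in DN2a and DN2b carry the same date. The DN groups model early T cell stages on a plate-bound ligand rather than in a thymus, and the control is a culture without ligand for which no sort after culture is given.

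Gimap proteins are small GTP-binding proteins that sit on the membranes of organelles, mostly in lymphocytes, where several of them govern survival. Loss of *Gimap5* leaves rats and mice short of lymphocytes, and *Gimap1* is needed for mature T and B cells to persist. The proteins of *Gimap3* and *Gimap5* bind members of the Bcl-2 family, *Gimap4* has been tied to the pace of T cell death, and *Gimap6* takes part in autophagy with *Gabarapl2*. The genes lie side by side in a single cluster, which is why it can be asked whether they come on together.

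The cluster spans 123.6 kb of chromosome 6 in mm10, from 48647234 to 48770851. In the order of the chromosome the members are *Gimap8*, *Gimap9*, *Gimap4*, *Gimap6*, *Gimap7*, *Gimap1*, *Gimap5* and *Gimap3*. *Gimap6* and *Gimap3* are on the minus strand and the other 6 members on the plus strand. The promoters of 4 members are shown because, as the values below describe, *Gimap9* and *Gimap1* already held many reads in DN1 whereas *Gimap4* and *Gimap7* held few, although *Gimap9* and *Gimap4* lie only 5434 bases apart. Each run is the 250 bases before the annotated start, from RefSeq on GRCm38.p6, on the plus strand and read 5′ to 3′, with capitals marking AGGAAG (an ETS word) and TGTGGT (a RUNX word) or their reverse complements. The windows are chr6:48675885-48676134 for *Gimap9*, chr6:48738797-48739046 for *Gimap1*, chr6:48684328-48684577 for *Gimap4* and chr6:48718371-48718620 for *Gimap7*.
Gimap9: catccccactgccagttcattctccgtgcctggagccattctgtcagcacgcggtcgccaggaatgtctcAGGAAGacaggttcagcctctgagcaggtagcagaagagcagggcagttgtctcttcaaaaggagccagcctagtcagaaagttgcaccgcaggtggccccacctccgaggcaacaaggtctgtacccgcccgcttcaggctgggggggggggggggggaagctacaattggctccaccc
Gimap1: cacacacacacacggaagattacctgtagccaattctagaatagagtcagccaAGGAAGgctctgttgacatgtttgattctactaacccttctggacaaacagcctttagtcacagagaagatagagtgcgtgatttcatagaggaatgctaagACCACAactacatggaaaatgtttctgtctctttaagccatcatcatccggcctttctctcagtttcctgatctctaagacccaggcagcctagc
Gimap4: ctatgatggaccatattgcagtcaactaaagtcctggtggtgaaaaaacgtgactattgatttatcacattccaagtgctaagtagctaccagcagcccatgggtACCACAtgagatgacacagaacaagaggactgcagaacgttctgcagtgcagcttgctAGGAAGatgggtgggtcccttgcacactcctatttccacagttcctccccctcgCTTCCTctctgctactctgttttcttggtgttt
Gimap7: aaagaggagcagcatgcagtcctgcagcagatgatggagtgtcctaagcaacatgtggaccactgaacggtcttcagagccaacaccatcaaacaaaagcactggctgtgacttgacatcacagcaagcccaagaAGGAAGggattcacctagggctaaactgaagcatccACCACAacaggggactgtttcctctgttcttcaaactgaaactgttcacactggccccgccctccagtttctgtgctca

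Over the windows from 250 bases before to 50 bases after the start, both strands searched, AGGAAG was found in 7 of the members' 9 windows, against 35.4% of all 32841 promoters. *Gimap8* has 2 windows, of which 1 holds the word, and *Gimap6* is the member without it. TGTGGT was found in 3 windows (*Gimap1*, *Gimap4* and *Gimap7*) against 16.8%. The TCF1 word CTTTGA was found in *Gimap4* and *Gimap7* against 16.001%, in both cases in the bases after the start and so outside the printed runs. The word TGGGAA, core of the sites bound by the Notch partner RBPJ, was found in *Gimap3* alone against 25.6%, and the GATA word AGATAA was found in 0 members against 11.2%. No match overlapped a match of another word. The member promoters were poor in CpG, with an observed over expected CpG of 0.104 to 0.325 and a median of 0.178, against a median of 0.384 over all promoters. A match of 6 letters is a description of the window and not a binding site.

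The libraries held 12354635 to 35367925 reads in genes, so that 3 reads, the floor for a library listed at 0, were worth 0.0848 to 0.243 CPM (read counts scaled to library size), counting error only. T lineage markers (*Cd3e*, *Il2ra*, *Bcl11b* and 6 others) summed to 1.99 to 9.18 CPM in the control, with *Cd3e* at 0, to 414.1 to 513.7 CPM in DN1, to 2600 to 3618 CPM in DN2a and to 4968 to 6172 CPM in DN2b. The 7 myeloid markers summed to 20289 to 51363 CPM in the control, to 126.2 to 1924 CPM in DN1 and to at most 12.7 CPM in DN2a and DN2b. The *Gimap* values below rise along with the T lineage sum and against the myeloid sum, and in bulk RNA fewer cells of a type and less RNA per cell cannot be told apart. Cell types other than T cells also use *Gimap* genes. The 6 B cell markers summed to at most 7.93 CPM in any library, with *Pax5* at 0 in the control, DN1 and DN2b and *Ebf1* at 4.53 CPM in DN2b replicate 2. *Vpreb1*, the only B cell marker high enough to test, was called higher than in the control in DN1 (log2FC 2.27, SE 0.66, adjusted p = 0.0280), DN2a (3.62, SE 0.65, adjusted p = 0.00244) and DN2b (3.96, SE 0.66, adjusted p = 0.00176), at no more than 3.08 CPM. Its DN1 call was lost under 7 of 17 alternatives, among them leaving out DN1 replicate 2 or control D1, R1 or R2 (adjusted p from 0.0154 to 0.150). The 5 NK markers summed to 11.6 to 160.1 CPM in the control and to 404.0 to 4273 CPM in the DN libraries, nearly all of it *Gzma* (221 to 4053 CPM in the DN libraries) and *Nkg7* (177 to 234 CPM there, and 158.7 CPM in control D2), with *Ncr1*, *Klrb1c* and *Klrd1* at no more than 6.05 CPM in any library. The 3 mast cell markers summed to 1.02 to 35.7 CPM in the control, to 7471 and 1881 CPM in DN1, to 46.4 and 13.2 CPM in DN2a and to 4.10 and 10.8 CPM in DN2b. The DN1 sum was *Mcpt1* almost alone, at 7467 and 1879 CPM, while *Tpsb2* was at 0.594 to 18.2 CPM in the control and at 0.0442 and 0 CPM in DN1, and *Cma1* at 0.198 to 12.2 CPM and at 4.42 and 2.001 CPM. The part of these other cell types in the *Gimap* values was not tested.

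*Gimap5* and *Gimap1*, the members needed for lymphocyte survival, were low without Notch, *Gimap5* near the floor with 0 to 4 reads a library and *Gimap1* above it with 9 to 45, and were called higher than the control in every DN stage. *Gimap1* was at 0.436, 1.78, 0.622 and 1.05 CPM in control libraries D1, D2, R1 and R2. The DN libraries, given here and below as replicate 1 and then replicate 2, held 28.5 and 11.6 CPM in DN1, 54.2 and 115.4 CPM in DN2a, and 78.6 and 137.8 CPM in DN2b. Its groups did not overlap between the control, DN1 and the DN2 stages, whereas DN2a replicate 2 stood above DN2b replicate 1. *Gimap5* was listed at 0 in D1 and R1, and at 0.158 and 0.0337 CPM in D2 and R2. It held 4.46 and 1.84 CPM in DN1, 12.0 and 24.4 CPM in DN2a, and 15.0 and 37.8 CPM in DN2b. *Gimap5* thus followed the same order of groups as *Gimap1*, with the same overlap between DN2a and DN2b.

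*Gimap3*, the close relative of *Gimap5* that also binds Bcl-2 family proteins, had the fewest reads of the 8 in every DN library. It had 0 reads in all 4 control libraries and in both DN1 libraries. It had 0.401 and 2.95 CPM in DN2a and 1.04 and 7.20 CPM in DN2b, from 11, 41, 16 and 89 reads. Of the 36-base words of its exons, 12.7% also occur in another gene, mostly *Gimap5*, so reads of this length can be lost as not unique. The share for the other members is 0% to 6.94%. The read-through and antisense transcripts of the cluster were left out of these shares. The read-through transcript holds 5.25% of the words of *Gimap1*, 2.85% of *Gimap5*, 1.98% of *Gimap7* and 0.865% of *Gimap3*.

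*Gimap6*, which acts in autophagy, and *Gimap7*, a GTPase known to pair with other family members, differed in their levels without Notch. *Gimap6* had 0.339, 1.38, 0.113 and 0.371 CPM in the control libraries, 7.73 and 6.98 CPM in DN1, 19.1 and 38.2 CPM in DN2a, and 28.8 and 55.8 CPM in DN2b. *Gimap7* had 0 reads in all 4 control libraries. It held 1.86 and 1.57 CPM in DN1, 14.4 and 20.1 CPM in DN2a, and 20.4 and 48.6 CPM in DN2b. The stages did not overlap for *Gimap7*, DN2a replicate 2 being just under DN2b replicate 1.

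*Gimap4*, linked to T cell death, was all but absent from the control. A single read, 0.0485 CPM in D1, was found in the 4 control libraries. DN1 held 0.353 and 1.46 CPM, DN2a 7.18 and 17.6 CPM, and DN2b 17.8 and 143.4 CPM. No stage overlapped another, but the DN2b libraries were far apart, with 274 and 1772 reads.

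*Gimap8*, the member with several GTPase domains, stayed under 1 CPM until DN2. It had 0.145, 0.277, 0.113 and 0.236 CPM in the control, from 3 to 7 reads a library, and 0.707 and 0.487 CPM in DN1. It reached 3.21 and 12.0 CPM in DN2a and 7.29 and 36.3 CPM in DN2b. *Gimap9*, for which no role is given here, was the most abundant member in every group, also per kb of exon. It had 1.41, 8.19, 1.39 and 2.87 CPM in the control, 31.0 and 50.3 CPM in DN1, 70.6 and 145.7 CPM in DN2a, and 84.9 and 191.6 CPM in DN2b. For both genes the DN2a and DN2b values overlapped and all other groups were apart.

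**Figure D1:**
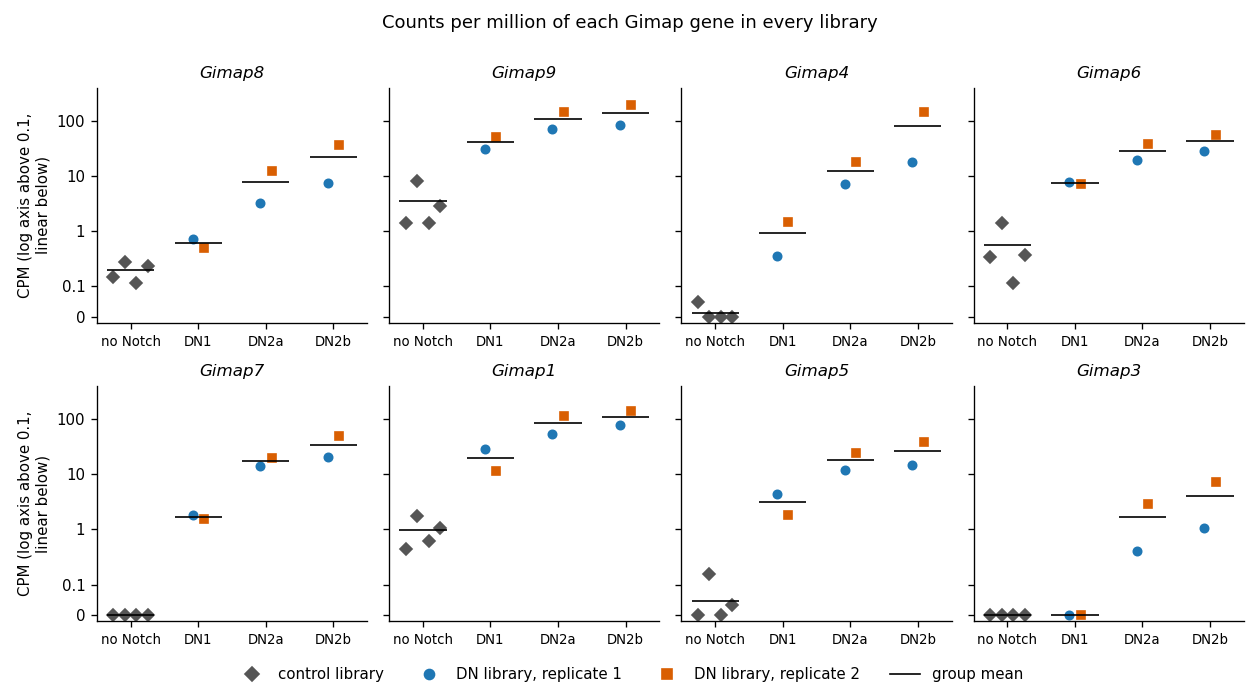
Level of each *Gimap* gene in every library, in CPM on a symmetric log axis, with a panel per gene, a point per library and a bar at the group mean. All 8 genes are at or under 8.19 CPM in the control, and *Gimap3* leaves 0 only in DN2a and DN2b.

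The plot of levels by library shows the same upward order in nearly every panel. In 7 of the 8 members both DN1 libraries were above all 4 control libraries, and DN2a was then above DN1 and DN2b above DN2a, within replicate 1 and within replicate 2. The exception was *Gimap3*, at 0 in both the control and DN1. The share of all 12221 genes tested with this order was 2.20%. The summed level of the 8 members was 2.23 to 11.8 CPM in the control, 74.5 and 74.3 CPM in DN1, 181.1 and 376.3 CPM in DN2a, and 253.9 and 658.5 CPM in DN2b.

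The first comparison was DN1 over the no Notch control. Besides the ligand, these groups differ in the sort of DN1 and in the myeloid sum and the levels of *Mcpt1* and *Gzma* given above. In edgeR's quasi-likelihood test, fitted over all 10 libraries with Benjamini-Hochberg adjustment over 12221 genes, 6 of the 8 members rose at an adjusted p under 0.05, against 14.3% of all genes tested, and 0 fell, against 17% of genes. All 8 members passed the filter of 1 CPM in 2 libraries. *Gimap3* and *Gimap8* passed it only through DN2a and DN2b libraries, and *Gimap4*, with 1 such library in DN1, also needed them, so 5 members were tested when the fit held the control and DN1 alone. *Gimap5* rose by a log2 fold change (log2FC) of 5.65 (SE 0.92, adjusted p = 0.0027), from 0.0480 ± 0.0752 CPM (SD, n = 4) to 3.15 ± 1.85 CPM (SD, n = 2). *Gimap1* rose by 4.06 (SE 0.57, adjusted p = 0.00143), from 0.971 ± 0.596 to 20.04 ± 11.9 CPM (SD, n = 4 and 2). *Gimap9*, at 3.46 ± 3.23 and 40.6 ± 13.7 CPM, and *Gimap6*, at 0.552 ± 0.567 and 7.35 ± 0.533 CPM (SD, n = 4 and 2), had log2FC of 3.26 (SE 0.72, adjusted p = 0.01001) and 3.43 (SE 0.76, adjusted p = 0.00969).

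*Gimap7* was at least 63.9-fold higher in DN1, reckoned against a floor of 3 reads over the 4 control libraries (adjusted p = 0.00109). *Gimap4*, with 1 control read, was 94.4-fold higher with a 95% exact counting interval of 15.9 to 3835 (adjusted p = 0.0146). *Gimap8* had a log2FC of 1.34 (SE 0.78) and did not pass (adjusted p = 0.219), although both DN1 libraries were above all 4 controls, as they were in 7 of the 8 members and in 31.3% of genes. *Gimap3* was at 0 in both groups and gets no fold. The median log2FC of the 7 members with a fold was 4.06, against 0.01 over all genes tested. DESeq2 called the same 6 members, against 15.8% of genes.

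Without DN1 replicate 2 the count of calls was 4, since *Gimap4* (log2FC 4.32, adjusted p = 0.131) and *Gimap9* (2.79, adjusted p = 0.0641) no longer passed, and without any other single library it was 6. Leaving out DN1 replicate 1 moved *Gimap1* to 3.36, *Gimap5* to 4.96 and *Gimap4* from a fitted 5.73 to 6.46. Leaving out control D2 moved *Gimap5* to 7.30, *Gimap6* to 4.55 and *Gimap9* to 4.24, and leaving out control D1 moved *Gimap4* to 7.19. With controls D1 and D2 only, edgeR did not call *Gimap4* (adjusted p = 0.123) or *Gimap9* (0.0665), and with R1 and R2 only it did not call *Gimap4* (0.0758). By these control pairs *Gimap5* was at 4.68 and 7.06 and *Gimap6* at 2.63 and 4.80.

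The same 4 control libraries served for DN2a and DN2b, so these comparisons are not independent of the first. IL-7 was added to the Delta1 cultures at day 14, the day in the control's label, and none is stated for the control. Ligand, IL-7, sort and time in culture therefore cannot be told apart in these comparisons. All 8 members rose in DN2a over the control, against 21.2% of genes, and all 8 rose in DN2b over the control, against 19.9%. Every DN2a and DN2b library was above every control library for all 8, against 31.7% and 29.7% of genes. DESeq2 called all 8 as well, against 22% and 21.1% of genes. In DN2b the log2FC over the control was 6.70 for *Gimap1* (SE 0.61, adjusted p = 0.000113), 8.91 for *Gimap5* (SE 0.95, adjusted p = 0.000243) and 6.13 for *Gimap6* (SE 0.80, adjusted p = 0.000612). It was 6.70 for *Gimap8* (SE 0.78, adjusted p = 0.000376) and 5.19 for *Gimap9* (SE 0.76, adjusted p = 0.00101). *Gimap8*, which had not passed in DN1, thus passed in DN2b, and also in DN2a with 5.22 (SE 0.75, adjusted p = 0.000921).

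For the members with 0 or 1 control reads the rise is given as a bound or a ratio. *Gimap7* was at least 603-fold higher in DN2a and at least 1220-fold higher in DN2b (adjusted p = 0.000170 and 0.000116). *Gimap3* was higher by at least 46.5-fold in DN2a and by at least 140-fold in DN2b (adjusted p = 0.0131 and 0.00916). *Gimap4* was 1186-fold higher in DN2a, with a counting interval of 212 to 46930, and 8187-fold higher in DN2b, with one of 1468 to 323526 (adjusted p = 0.000516 and 0.000175). These intervals cover counting error only. The median log2FC of the 8 members was 7.30 in DN2a and 7.80 in DN2b as fitted, and 5.98 and 6.91 with *Gimap3*, *Gimap4* and *Gimap7* set at their bounds or ratios, against -0.05 over all genes in each comparison.

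Each of the 8 calls in DN2b over the control was kept when any single library was left out. In DN2a, *Gimap3* did not pass without DN2a replicate 2 (fitted log2FC 6.21, adjusted p = 0.0635). Leaving out DN2a replicate 2 also moved the fitted DN2a log2FC of *Gimap1* from 6.37 to 5.68, of *Gimap4* from 9.69 to 8.88, of *Gimap5* from 8.40 to 7.75, of *Gimap6* from 5.60 to 4.96, of *Gimap8* from 5.22 to 3.92 and of *Gimap9* from 4.86 to 4.196. Leaving out DN2a replicate 1 moved *Gimap3* from 8.24 to 9.05 and *Gimap8* to 5.90. In DN2b, leaving out replicate 2 lowered the fitted log2FC of *Gimap3* to 7.65, of *Gimap4* to 10.24 and of *Gimap5* to 8.14. It also lowered that of *Gimap7* to 11.94, of *Gimap8* to 5.17 and of *Gimap9* to 4.53. Leaving out DN2b replicate 1 raised *Gimap3* to 10.35, *Gimap4* to 13.20 and *Gimap8* to 7.43. *Gimap3*, *Gimap4* and *Gimap7* had hardly any control reads. Their fitted values show direction only, and the bounds or ratios above give the size. Without control D2, *Gimap5*, *Gimap6* and *Gimap9* reached 10.06, 6.72 and 5.85 in DN2a and 10.58, 7.27 and 6.19 in DN2b, and without control D1 *Gimap4* reached 11.16 and 13.82.

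Between DN1 and DN2a, where IL-7 was also added, the fitted difference was above 0 for all 8 members and passed for none. *Gimap4* had a log2FC of 3.96 (SE 1.08, adjusted p = 0.209), *Gimap8* of 3.87 (SE 0.92, adjusted p = 0.153) and *Gimap7* of 3.53 (SE 0.56, adjusted p = 0.0831). *Gimap5*, *Gimap1*, *Gimap6* and *Gimap9* had 2.75 (SE 0.91), 2.31 (SE 0.66), 2.17 (SE 0.88) and 1.60 (SE 0.86), with adjusted p between 0.236 and 0.551. *Gimap3* was at least 17.2-fold higher (adjusted p = 0.304). Leaving out DN2a replicate 2 moved *Gimap4* to 3.13, *Gimap8* to 2.58, *Gimap5* to 2.11, *Gimap1* to 1.62, *Gimap6* to 1.54 and *Gimap9* to 0.94. Leaving out DN1 replicate 1 moved *Gimap5* to 3.44 and *Gimap1* to 3.01, without DN1 replicate 2 *Gimap4* was at 5.38, and without DN2a replicate 1 *Gimap8* was at 4.56. All 8 members had both DN2a libraries above both DN1 libraries, against 12.1% of genes. In edgeR 0 members were called, against 0.196% of genes called higher, while 7 members were higher at an unadjusted p under 0.05, against 3.38% of genes. DESeq2 called 6 members, *Gimap1*, *Gimap3*, *Gimap4*, *Gimap5*, *Gimap7* and *Gimap8*, against 1.02%, and edgeR with no filter on low counts called *Gimap7*.

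Over the whole span from DN1 to DN2b, 3 of the 8 members rose, against 1.01% of genes, and 0 fell, against 0.892% of genes. The mean of *Gimap4* was 0.907 ± 0.783 CPM in DN1 and 80.6 ± 88.8 CPM in DN2b (SD, n = 2 for every mean here), for a log2FC of 6.63 (SE 1.19, adjusted p = 0.0289). The mean of *Gimap8* was 0.597 ± 0.156 CPM in DN1 and 21.8 ± 20.5 CPM in DN2b, for a log2FC of 5.35 (SE 0.98, adjusted p = 0.0304). The mean of *Gimap7* was 1.71 ± 0.203 CPM in DN1 and 34.5 ± 19.96 CPM in DN2b, for a log2FC of 4.51 (SE 0.58, adjusted p = 0.0228). *Gimap8* passed the filter on low values only through DN2a and DN2b.

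The other 5 members did not pass, while 7 members were higher at an unadjusted p under 0.05, against 5.43% of genes, and both DN2b libraries were above both DN1 libraries in all 8, against 13.2% of genes. *Gimap3* was at least 51.9-fold higher (adjusted p = 0.159). *Gimap5* had a log2FC of 3.26 (SE 0.93, adjusted p = 0.135), *Gimap6* of 2.71 (SE 0.90, adjusted p = 0.198), *Gimap1* of 2.64 (SE 0.67, adjusted p = 0.1003) and *Gimap9* of 1.93 (SE 0.87, adjusted p = 0.372). Without DN2b replicate 2 *Gimap5* was at 2.49 and *Gimap9* at 1.27, and without DN1 replicate 1 *Gimap5* was at 3.95 and *Gimap1* at 3.33. The median log2FC of the 8 members was 3.89 as fitted, against -0.02 over all genes. DESeq2 called 7 members, all but *Gimap9*, against 2.77% of genes.

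Because the DN2a and DN2b libraries carry the same dates and the DN1 libraries dates a few days earlier, the 6 DN libraries were also fitted with the replicate number, which marks the year in the label dates, as a block. This called 4 members in DN2b over DN1, against 1.29% of genes. These were *Gimap4* (adjusted p = 0.0158), *Gimap7* (adjusted p = 0.0190), *Gimap9* (adjusted p = 0.0217) and *Gimap6* (adjusted p = 0.0363), while *Gimap8* did not pass (adjusted p = 0.0605). The same 6 libraries without a block called *Gimap7* alone, with adjusted p of 0.0691 for *Gimap4* and 0.0713 for *Gimap8*, against 1.08% of genes. In DN2a over DN1 the block called 0 members, against 0.362% of genes.

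Single libraries decided the 3 calls in DN2b over DN1. Without DN1 replicate 1 none of the 3 passed (*Gimap4* 5.88, adjusted p = 0.186), and without DN2b replicate 2 none passed either, with *Gimap4* at 4.49, *Gimap7* at 3.80 and *Gimap8* at 3.82 (adjusted p = 0.134, 0.0889 and 0.132). Without DN1 replicate 2 only *Gimap4* passed, at 8.05, and without DN2a replicate 1 only *Gimap8*. *Gimap7* alone was lost without DN2a replicate 2 (adjusted p = 0.0544), *Gimap4* alone without control D1 (0.0808) and *Gimap8* alone without control R2 (0.0526), while 5 members passed without control D2. Leaving out DN2b replicate 1 kept all 3 calls, with *Gimap4* at 7.45 and *Gimap8* at 6.08.

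From DN2a to DN2b the log2FC of *Gimap4* was 2.66 (SE 0.97, unadjusted p = 0.0223), of *Gimap8* 1.48 (SE 0.82), of *Gimap3* 1.26 (SE 1.40) and of *Gimap7* 0.98 (SE 0.51). For *Gimap6*, *Gimap5*, *Gimap1* and *Gimap9* it was 0.33 to 0.54, with standard errors of 0.63 to 0.85. Without DN2b replicate 2 the value of *Gimap4* was 0.54 and the sign turned for *Gimap1*, *Gimap3*, *Gimap5*, *Gimap8* and *Gimap9*, as it did for *Gimap1* and *Gimap9* without DN2a replicate 1. In edgeR 0 members were called, with an adjusted p of 1 for each, and 0% of all genes were called, while 1 member passed an unadjusted p under 0.05 against 1.70% of genes. DESeq2 and the block also called 0 members, against 0.131% and 0% of genes. Only *Gimap4* and *Gimap7* had both DN2b libraries above both DN2a libraries, against 14.5% of genes, and each of the other 6 had DN2a replicate 2 above DN2b replicate 1.

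**Figure D2:**
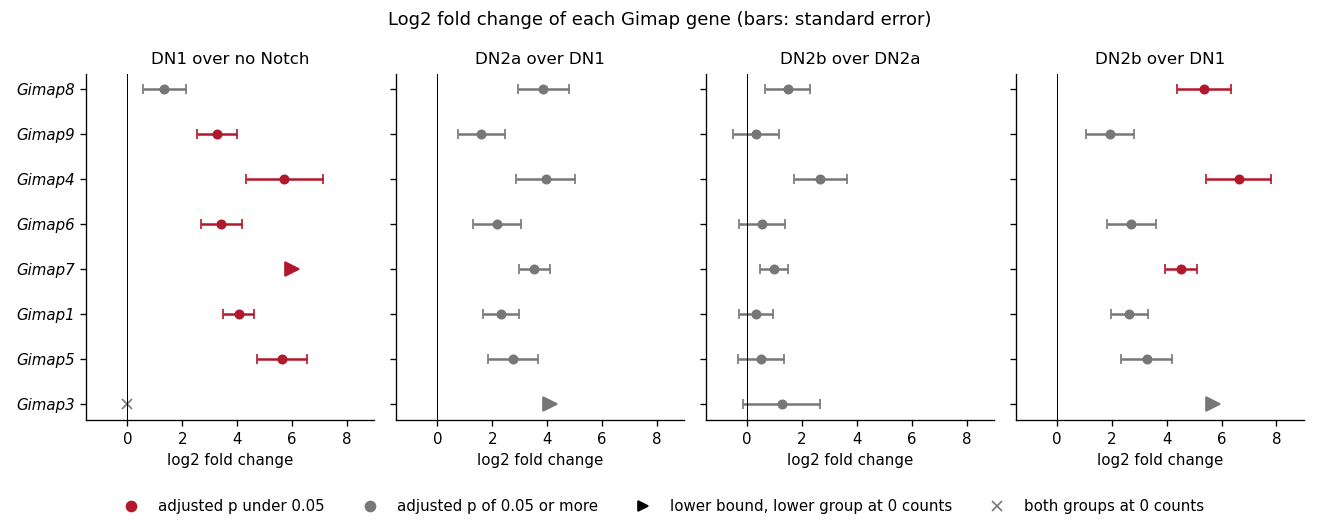
Log2 fold change of each *Gimap* gene with its standard error in DN1 over no Notch, DN2a over DN1, DN2b over DN2a and DN2b over DN1, with red points for an adjusted p under 0.05, triangles for lower bounds where the lower group had 0 reads, and a cross where both groups had 0 reads. Of the red points, 6 are in DN1 over no Notch and 3, *Gimap4*, *Gimap7* and *Gimap8*, in DN2b over DN1.

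As the plot of the 4 steps shows, *Gimap4* and *Gimap7* were called both in DN1 over no Notch and in DN2b over DN1. *Gimap8* was called in the second of these alone, a call lost under 9 of 20 alternatives.

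The level of each member was also set against its own DN2b mean. In DN1, *Gimap9* was at 29.4% of its DN2b mean, *Gimap1* at 18.5%, *Gimap6* at 17.4% and *Gimap5* at 11.9%. *Gimap7* was at 4.96%, *Gimap8* at 2.74%, *Gimap4* at 1.12% and *Gimap3* at 0%, where 0 reads allow up to 0.0729 CPM over both DN1 libraries beside a DN2b mean of 4.12 CPM. In the DN2a means the same 4 members led, with *Gimap1* at 78.4%, *Gimap9* at 78.2%, *Gimap5* at 68.9% and *Gimap6* at 67.7%, followed by *Gimap7* at 49.96%, *Gimap3* at 40.6%, *Gimap8* at 34.9% and *Gimap4* at 15.4%. Within replicate 1 the leading 4 stood at 26.8% to 36.5% of DN2b in DN1 and the other 4 at no more than 9.70%. Within replicate 2 the leading 4 stood at 4.86% to 26.3% and the other 4 at no more than 3.22%. In DN2a this split held within replicate 2, at 64.4% to 83.8% against no more than 41.4%, but not within replicate 1, where *Gimap7*, at 70.5%, stood above *Gimap1*, at 69.0%, and *Gimap6*, at 66.4%. The 4 leading members lie at positions 2, 4, 6 and 7 of the cluster and the other 4 at positions 1, 3, 5 and 8.

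**Figure D3:**
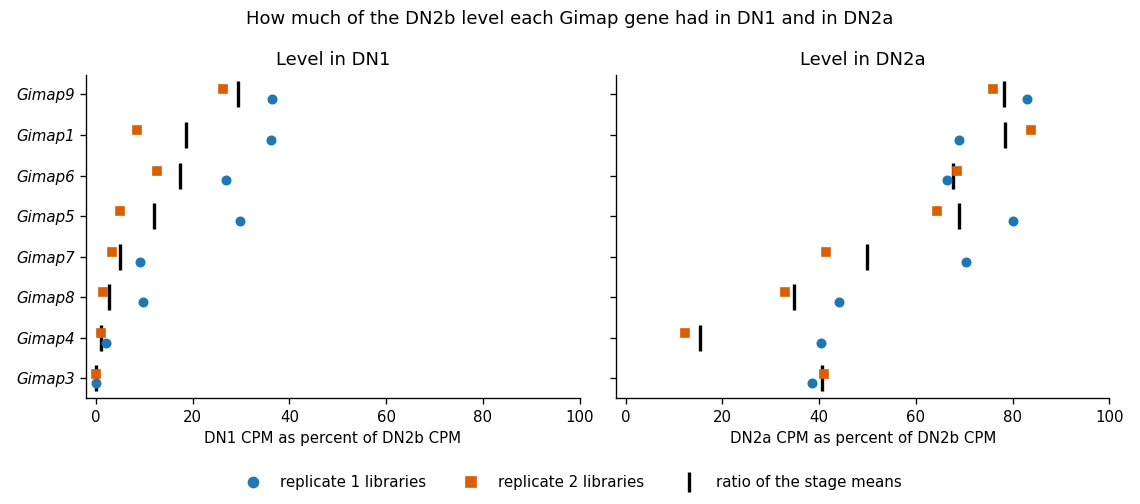
DN1 and DN2a levels of each *Gimap* gene as a percentage of its DN2b level, within replicate 1, within replicate 2 and from the group means. *Gimap9*, *Gimap1*, *Gimap6* and *Gimap5* are at 11.9% to 29.4% of their DN2b mean in DN1, and *Gimap7*, *Gimap8*, *Gimap4* and *Gimap3* at 0% to 4.96%.

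The plot of each gene against its own DN2b level splits the family in DN1, but these 4 and 4 were named from the same values and the split was given no test. A contrast fitted per gene asked whether the log2 rise from the control to DN1 differed from the log2 rise from DN1 to DN2b. The difference was 2.38 for *Gimap5* (SE 1.46), 1.41 for *Gimap1* (SE 1.03), 1.33 for *Gimap9* (SE 1.37) and 0.72 for *Gimap6* (SE 1.39), each larger before DN1 as fitted. With single libraries left out these ran from 1.01 (without DN1 replicate 1) to 4.02 (without control D2) for *Gimap5*, from 0.0292 (without DN1 replicate 1) to 2.34 (without DN1 replicate 2) for *Gimap1*, from 0.377 (without DN1 replicate 2) to 2.29 (without control D2) for *Gimap9* and from 0.341 to 1.82 (without control D2) for *Gimap6*, which was at -0.0774 with control libraries D1 and D2 only. For *Gimap8* the difference was -4.01 (SE 1.61, unadjusted p = 0.0331, adjusted p = 0.230), larger after DN1, and -2.47 without DN2b replicate 2. In edgeR 0 members passed, with adjusted p of 0.230 to 0.831 in these 5, against 3.49% of genes in either direction, and 1 of these 5, *Gimap8*, passed an unadjusted p under 0.05, against 18.2% of genes. *Gimap3*, *Gimap4* and *Gimap7* were left out of this contrast for want of control reads. The bound for *Gimap7* before DN1, at least 63.9-fold, was above its fitted 22.8-fold rise after DN1, unlike the direction of *Gimap8*. *Gimap4* was 94.4-fold higher before DN1, with the wide interval given above, and 98.7-fold higher after it as fitted.

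The second contrast, the rise from DN1 to DN2a less the rise from DN2a to DN2b, was above 0 for all 8 members, from 1.28 for *Gimap9* to 2.55 for *Gimap7* among the 7 with reads in DN1. Without DN2a replicate 2 it was below 0 for *Gimap4* (-0.37), *Gimap8* (-0.20) and *Gimap9* (-0.052). In edgeR 0 members and 0% of genes passed, with adjusted p of 0.9999 throughout. *Gimap7* alone passed an unadjusted p under 0.05, at 0.0219 in the same edgeR fit, against 3.06% of genes. DESeq2 called 0 members in either contrast.

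The make-up of the family's reads shifted as these members came on. *Gimap9* gave 59.2% to 69.5% of all *Gimap* reads in the control libraries, 41.6% and 67.7% of those in DN1, 39.0% and 38.7% of those in DN2a, and 33.5% and 29.1% of those in DN2b. The share of *Gimap4* was 0.474% and 1.97% in DN1, then 3.96% and 4.68% in DN2a, then 7.02% and 21.8% in DN2b. *Gimap1* gave 38.2% and 15.7% in DN1, with 644 and 215 reads, so the DN1 libraries differed mainly in the balance of *Gimap1* and *Gimap9*. Their family totals in DN1 were 74.5 and 74.3 CPM.

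**Figure D4:**
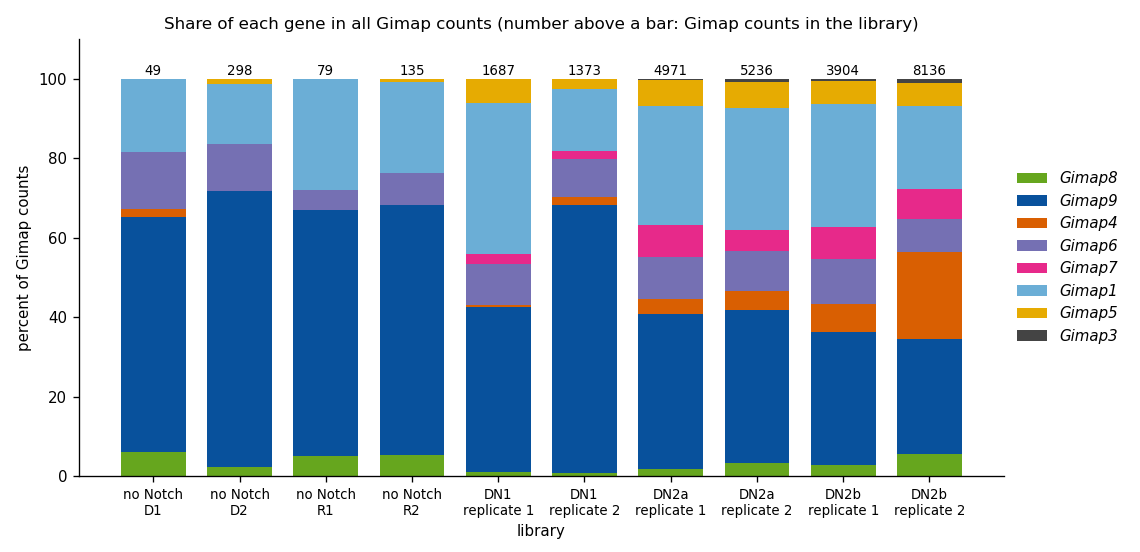
Share of each member in all *Gimap* reads of a library, as stacked percentages, with the number of *Gimap* reads above each bar. *Gimap9* takes 59.2% to 69.5% of the 49 to 298 reads in the control libraries, and *Gimap4* grows to 21.8% in DN2b replicate 2.

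As the stacked shares show, neighbouring genes did not keep a fixed ratio. For each 100 reads of *Gimap9* there were 1.14 and 2.90 reads of its neighbour *Gimap4* in DN1, then 10.2 and 12.1 reads in DN2a, then 21.0 and 74.9 reads in DN2b. *Gimap5* and its neighbour *Gimap1* had 0, 8.89, 0 and 3.23 reads of *Gimap5* per 100 of *Gimap1* in control libraries D1, D2, R1 and R2, from 0 to 4 reads of *Gimap5*. In the DN libraries they stayed closer to each other, with 15.7 and 15.8 such reads in DN1, then 22.1 and 21.1 reads in DN2a, then 19.0 and 27.4 reads in DN2b.

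Levels can be compared between members only per length of exon. In DN2b the mean in CPM per kb of exon was 84.2 for *Gimap9*, 43.9 for *Gimap4*, 35.2 for *Gimap1*, 14.9 for *Gimap7*, 12.1 for *Gimap6*, 6.36 for *Gimap5*, 5.90 for *Gimap8* and 1.60 for *Gimap3*. Neighbours in this order overlapped in their range over the 2 libraries, as *Gimap9* with 51.7 to 116.7 and *Gimap4* with 9.70 to 78.1, except for *Gimap1*, with 25.6 to 44.8, and *Gimap7*, with 8.78 to 20.9. All members were lower in replicate 1, and within each library most neighbours kept this order, *Gimap9* above *Gimap4* among them. *Gimap4* was under *Gimap1* in replicate 1 alone, and *Gimap5* (3.61 and 9.11) was under *Gimap8* (1.97 and 9.82) in replicate 2 alone. In DN1 the order was *Gimap9* at 24.7, *Gimap1* at 6.52, *Gimap6* at 2.10, *Gimap5* at 0.759, *Gimap7* at 0.736, *Gimap4* at 0.494, *Gimap8* at 0.161 and *Gimap3* at 0 CPM per kb. Over the 2 DN1 libraries *Gimap4*, with 0.192 to 0.795, overlapped *Gimap7*, with 0.675 to 0.798, and *Gimap5*, with 0.443 to 1.08.

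The replicate moved with the family's level. All 8 members were higher in replicate 2 than in replicate 1 in DN2a, by 1.40 to 7.35 times, and in DN2b, by 1.75 to 8.05 times, against 42.5% and 51.8% of genes. In DN1 only *Gimap4* (4.13 times) and *Gimap9* (1.62 times) were higher in replicate 2, against 42.7% of genes. The T lineage sum went the other way, at 6172 CPM in DN2b replicate 1 and 4968 CPM in DN2b replicate 2, although *Cd3d* (326.8 and 580.1 CPM), *Cd3e* (92.4 and 113.2 CPM) and *Gata3* (29.99 and 56.8 CPM) were higher in replicate 2. DN2b replicate 2 also held 72.9 CPM of the 4 endothelial markers, which mark another cell type that uses *Gimap* genes, against 0.715 CPM in DN2b replicate 1, with *Kdr* at 42.9, *Tek* at 16.3, *Cdh5* at 13.8 and *Emcn* at 0 CPM. In DN1 the endothelial sums were 3.98 and 23.7 CPM beside *Gimap* totals of 74.5 and 74.3 CPM. In DN2a they were 2.26 and 5.25 CPM, while the *Gimap* total there was 181.1 and 376.3 CPM. The part of these markers in the *Gimap* values was not tested.

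Genes beside the cluster were read to see whether the rise reached past it. The annotation holds 40 other genes within 250 kb of the outermost members, of which 17 have a row and 8 were tested. In DN2b over DN1 their median log2FC was 0.67, against 3.89 for the *Gimap* members, and 1 of them, *Gm5111*, was called, against 1.01% of genes called higher. For DN1 against the control the median was 0.55 beside 4.06 for the 7 members with a fold, and again only *Gm5111* of the 8 was called, against 14.3% of genes called higher. In DN2a over the control edgeR called *Gm5111* (adjusted p = 2.9e-05), *Repin1* (log2FC 1.07, SE 0.25, adjusted p = 0.00745) and *Zfp775* (1.20, SE 0.39, adjusted p = 0.0321) higher, against 21.2% of genes. *Zfp862-ps* was called lower there (-2.58, SE 0.95, adjusted p = 0.0496). In DN2b over the control *Gm5111*, *Repin1* (log2FC 1.37, SE 0.25, adjusted p = 0.00252) and *Zfp775* (log2FC 1.66, SE 0.39, adjusted p = 0.00883) rose, against 19.9% of genes, and *Zfp862-ps* fell (log2FC -3.33, SE 1.01, adjusted p = 0.0258). Without DN2b replicate 1 *Zfp775* did not pass (adjusted p = 0.0622), and *Zfp862-ps* did not pass without either DN2b library or without control R2, with adjusted p up to 0.129. *Zfp467*, at up to 9.45 CPM, was called lower in DN2a over the control (log2FC -3.20, SE 1.04, adjusted p = 0.0315), a call lost under 5 of 18 alternatives, among them leaving out either DN2a library or control D1 or D2 (adjusted p from 0.00176 to 0.198). *Tmem176b*, at up to 201.1 CPM, *Tmem176a*, at up to 123.1 CPM, and *Lrrc61*, at up to 19.9 CPM, passed in none of the 6 comparisons, with log2FC of 0.19 (SE 0.64), 0.84 (SE 0.84) and 0.70 (SE 0.47) in DN2b over DN1.

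*Gm5111*, a transcript of unassigned function 56.6 kb before *Gimap8* (chr6:48589445-48590584 in mm10, plus strand), had values much like those of the cluster. It had 0, 0.0395, 0 and 0.0337 CPM in the control libraries, 1.81 and 2.65 CPM in DN1, 13.8 and 25.7 CPM in DN2a, and 25.3 and 37.4 CPM in DN2b. Its DN1 level was 121-fold above the control's 2 reads, with a 95% exact counting interval of 32.6 to 1018 (adjusted p = 0.000440). Its log2FC was 3.34 in DN2a over DN1 (SE 0.60, adjusted p = 0.0584, and 0.0268 with the block) and 3.99 in DN2b over DN1 (SE 0.61, adjusted p = 0.0161, and 0.01004 with the block). The latter did not pass without DN1 replicate 1, DN2b replicate 1 or DN2b replicate 2, with adjusted p up to 0.119. It overlaps another annotated gene that has no row in the tables, and reads of the pair may be shared.

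**Figure D5:**
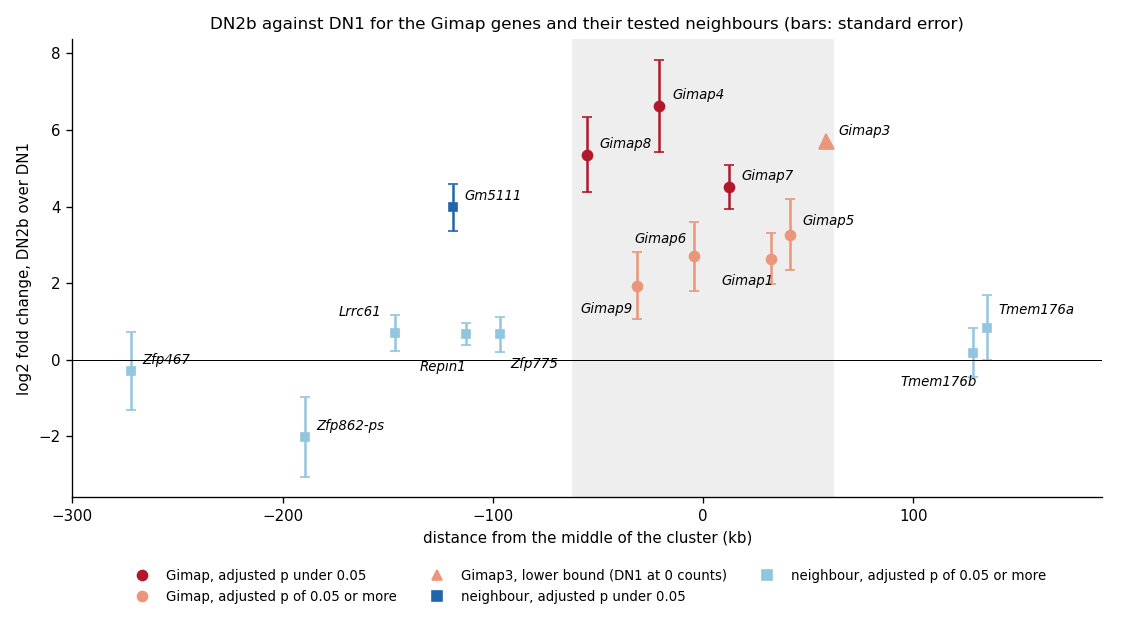
Log2 fold change of DN2b over DN1 with its standard error against the distance from the middle of the cluster in kb, for the 8 *Gimap* genes and the 8 tested neighbours, with a triangle for the lower bound of *Gimap3*. The *Gimap* genes lie between 1.93 and 6.63, and of the neighbours *Gm5111* alone lies in that range.

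The plot of fold change against distance sets *Gm5111*, at 3.99, apart from the other 7 neighbours, among which *Repin1* (0.67, SE 0.29) lies nearer to the cluster than *Gm5111* does. Likeness was read as Pearson r of log2(CPM + 1), here with CPM scaled by edgeR's TMM factors. Over all 10 libraries the genes outside the family with a profile most like the family's mean were *Glt8d2* (r of 0.991), *3110052M02Rik* (0.987), *A630095N17Rik* (0.987), *Vpreb1* (0.984) and *Gm5111* (0.983), out of 12213. Over the 6 DN libraries they were *Tnfrsf18* (0.995), *Armcx1* (0.995), *Dnpep* (0.994), *Nfil3* (0.993) and *Arhgap26* (0.992), out of 12160. Between the members themselves r was 0.741 to 0.991 over the 10 libraries, with a median of 0.940 over 28 pairs, and 0.859 to 0.992 over the 6 DN libraries. These points share libraries, depth and stage, and r is given as a description.

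Partners of the Gimap proteins were read from a list of 7 genes, *Bcl2*, *Bcl2l1*, *Bax*, *Bak1*, *Bad*, *Gabarapl2* and *Gsk3b*. *Bcl2*, which blocks cell death, was at 6.83 to 14.3 CPM in the control, 15.4 and 7.84 CPM in DN1, 72.4 and 69.6 CPM in DN2a, and 107.6 and 133.8 CPM in DN2b. It was the single partner called in DN2b over DN1 (log2FC 3.58, SE 0.37, adjusted p = 0.00340) and in DN2a over DN1 (2.83, SE 0.36, adjusted p = 0.0204, and 0.0576 with the block, lost also without DN1 replicate 1 or either DN2a library). Its DN1 replicate 2 value lay within the control range, whereas 7 of the 8 *Gimap* genes had both DN1 libraries above all controls. In DN1 over the control *Bcl2l1*, another survival gene, fell (log2FC -2.39, SE 0.39, adjusted p = 0.00272), as did the death gene *Bak1* (-0.70, SE 0.23, adjusted p = 0.0442, lost in 13 of 18 other settings). The median log2FC of the 7 was -0.35 between control and DN1 and -0.07 between DN1 and DN2b.

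Genes of mature T cell exit and survival were read beside the *Gimap* genes, and the difference between these lists was not tested. Of 10 such genes 6 were tested, and in DN1 over the control *Cd5* rose, from 0.452 ± 0.204 to 2.42 ± 0.136 CPM (SD, n = 4 and 2, adjusted p = 0.0118), while *Klf2* (-5.33, SE 0.75, adjusted p = 0.00143) and *Il7r* (-3.07, SE 0.90, adjusted p = 0.0288, lost without either DN1 library) fell. Only 1 of the 6 was higher in DN1 than in the control as fitted, and their median there was -2.97. In DN2b over DN1 0 of the 6 passed in edgeR, with *Klf2* at 2.75 (SE 0.71, adjusted p = 0.103), although *Klf2* passed in DESeq2. As fitted, 5 of the 6 were higher in DN2b than in DN1, their median being 1.70 beside 3.89 for the *Gimap* genes. Of 14 interferon-inducible GTPases, a separate GTPase family, 7 fell and 0 rose in DN1 over the control, against 17% and 14.3% of genes, with a median log2FC of -2.17 where that of the 7 *Gimap* genes with a fold was 4.06. In DN2b over DN1 4 of the 14 rose, against 1.01% of genes, *Gbp6* (6.51, SE 0.69, adjusted p = 0.00340), *Gbp9* (4.63, SE 0.59, adjusted p = 0.00704, lost with only the groups compared), *Gbp8* (5.25, SE 0.68, adjusted p = 0.00747, lost without DN1 replicate 1) and *Gbp4* (4.89, SE 1.01, adjusted p = 0.0452, lost in 8 of 20 other settings), with a median of 2.85 beside 3.89 for the *Gimap* genes.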

How the data were processed

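RNA was extracted with RNeasy Plus Mini kits and made into TruSeq Stranded Total RNA libraries. The authors aligned the first 36 bases of read 1 to mm10 with TopHat2 2.12 and deposited raw counts per gene made with HTSeq 0.6.1p1 in its intersection-strict mode. Cufflinks 2.2.1 is also named in the submitters' processing notes, and the annotation and strand setting of the counting are not given in the sources used here. Rows that name no gene, among them reads aligned to more than 1 place (16.4% to 30.1%), were dropped, and CPM was taken over the 24062 gene rows.

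The counts were tested with edgeR 4.0.16 (R 4.3.3, TMM scaling, at least 1 CPM in at least 2 libraries, quasi-likelihood test, prior count 0.125) in 1 fit of 4 groups and 10 libraries, with Benjamini-Hochberg adjustment over 12221 genes and a threshold of 0.05. SE is the absolute log2FC over the square root of F. Simulated data held 200 genes changed by a log2FC of 2. With DN1 set against the control, the fit found 109 of the 200 and called 5 genes falsely. Setting DN2b against the control gave 124 found and 2 false. Setting DN2b against DN1 gave only 22 found and 2 false. Most changes of this size between DN1 and DN2b were thus missed, so a member that did not pass there may still differ. Tables and figures used limma 3.58.1, Python 3.11.15 with matplotlib 3.10.9, scipy 1.17.1, pandas 2.3.3 and numpy 2.4.6. Levels are plain CPM. Log2FC come from the fit, and folds against a group with 0 to 2 reads from the reads summed over each group. The alternatives were DESeq2 1.42.0, library size only, no filter, filterByExpr, a prior count of 2, each library left out, a control of D1 with D2 only, a control of R1 with R2 only, only the groups compared, and the 6 DN libraries with or without the replicate number (the year in the label date) as a block.

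Deviations from the stage mean over 12221 genes correlated at 0.0842 between DN1 and DN2a of the same number, 0.287 between DN1 and DN2b and 0.270 between DN2a and DN2b. DN2a and DN2b libraries of a number share a date. By the paper's methods DN1, DN2a and DN2b cells were all taken from each LSK replicate, and the labels do not say which libraries share an isolate. The members and lists were chosen with earlier results of these data known. Named besides the members were genes within 250 kb of the cluster that passed the test or held 5 CPM, the 5 most alike by r, and the called genes of the lists, with *Klf2* named in DN2b over DN1 after its values were seen, and some called list genes are not reported here. Gene positions are from GENCODE vM21 on mm10. The read-through and antisense transcripts of the cluster have no row in the tables.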

Additional observations from a re-analysis of the deposited data

Results flagged for a closer look

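The level of *Gimap4* in control library D1 was 0.0485 CPM, from 1 read, and 0 in D2, R1 and R2, which put D1 apart from the other 3 by Dixon's criterion. With 3 libraries at 0 any single read in the fourth is set apart in this way, and a difference of 1 read is within counting error.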

How the results depend on the processing

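In DN1 over the control and in DN2a and DN2b over the control, the number of members called stayed within 1.5 times its value of 6, 8 and 8 under every alternative, at 4 to 6, 7 to 8 and 8. In DN2a over DN1 the count of 0 became 6 with DESeq2 and 1 (*Gimap7*) with no filter on low counts. In DN2b over DN1 the count of 3 became 7 with DESeq2, 1 with control libraries D1 and D2 only, 1 with R1 and R2 only, 1 with only the groups compared and 1 with the 6 DN libraries without a block, and it ran from 0 to 5 with single libraries left out. The cause of these moves was not tested. With the replicate number, the year in the label date, as a replicate block, the count in DN2b over DN1 was 4, and in DN2a over DN1 and DN2b over DN2a it was 0.

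The DN2b over DN2a log2FC changed sign when single libraries were left out, with ranges of -0.136 to 1.02 for *Gimap1*, -0.660 to 3.35 for *Gimap3*, -0.266 to 1.16 for *Gimap5*, -0.0525 to 2.78 for *Gimap8* and -0.335 to 0.992 for *Gimap9*. So did the contrast of the rise to DN2a with the rise to DN2b, with -0.371 to 3.41 for *Gimap4*, -0.198 to 3.93 for *Gimap8* and -0.0522 to 2.19 for *Gimap9*. The contrast of the rise before DN1 with that after it was 0.72 for *Gimap6* and -0.0774 with control libraries D1 and D2 only. Of the single-gene values under the alternatives, 1084 kept their direction and side of the threshold, 29 no longer passed, 15 newly passed and 11 reversed. Scaling by library size alone moved the median log2FC of all genes by 0.26 in DN1 over the control, -0.20 in DN2a over DN1 and -0.19 in DN2b over DN1. With 2 libraries in a DN group, and 0 to 1 reads of *Gimap3*, *Gimap4* and *Gimap7* in a control library, folds of these 3 genes over the control are bounds or ratios with wide counting intervals. Where a left-out library leaves a single sample in a group, that sample is taken to vary like the other groups.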

Other observations

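Control library D2 stood above the other controls in the *Gimap* family. Its *Gimap* reads came to 11.8 CPM, against 2.23 to 4.55 CPM in D1, R1 and R2, with *Gimap9* at 8.19 CPM and *Gimap1* at 1.78 CPM. The same library held the highest control sums of the T lineage markers (9.18 CPM against 1.99 to 6.001), of the myeloid markers (51363 CPM against 20289 to 34592), of the NK markers (160.1 CPM against 11.6 to 47.9) and of the interferon-inducible GTPases (833.3 CPM against 184.3 to 300.3). *Gimap3* and *Gimap7* were at 0 in it as in the other controls.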
